A study of Drosophila melanogaster with 6 samples.

Results

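The proneural genes of Drosophila melanogaster and their closest partners were followed in whole larvae of the 3rd instar labelled crol-KO and wild-type. The set was chosen by symbol and holds 9 genes, achaete (ac), scute (sc), lethal of scute (l(1)sc), asense (ase), atonal (ato), absent MD neurons and olfactory sensilla (amos), daughterless (da), extra macrochaetae (emc) and senseless (sens). All 9 were present among the 16508 genes of each expression table. RNA was sequenced in 3 libraries per group, and each library was made from polyadenylated RNA of 40 larvae. crooked legs (crol) encodes a zinc finger protein, and the comparison asks how transcript levels differ when it is knocked out.

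The crol-KO larvae of the study are described as carrying a CRISPR/Cas9 replacement of crol by a DsRed marker, introduced by homologous recombination. The injected stock carried the alleles y1, w1118 and DNAlig4[169] and a Cas9 transgene under the Actin5C promoter (M(Act5C-Cas9.P.RFP-)ZH-2A). Its progeny were crossed to y- w1118 flies, and the mutation was kept over a CyO chromosome marked with Tb1 and a w+ transgene. The wild-type larvae are described as the Oregon strain, so that the groups differ in strain background as well as in crol. The study describes a reduced but not abolished level of Crol protein in mutant larvae and ascribes the remainder to maternal protein. The sex of the larvae, their age within the instar and whether balancer larvae were removed before RNA extraction are not given in the sources used here.

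The tables were deposited under names that carry the opposite genotype to the sample labels, and every direction here rests on the labels. crol itself had 42.8, 39.1 and 37.0 CPM (counts scaled to library size with the TMM factors of edgeR) in the libraries labelled crol-KO, against 63.3, 60.6 and 73.2 CPM in those labelled wild-type. Its log2 fold change was -0.73 (SE 0.122, adjusted p = 0.0043 in edgeR) and -0.14 once a trend over transcript length had been removed. The tables give 1 value for the whole gene, whatever part of it the deletion left. The white gene w, disrupted in the w1118 allele of the stocks above, had 15.2 to 17.9 CPM in the libraries labelled crol-KO and 0.561 to 0.817 CPM in those labelled wild-type. yellow (y) had 0.566 to 0.809 CPM in the libraries labelled crol-KO and 0.380 to 0.683 CPM in those labelled wild-type, and the groups overlapped. Because of this conflict it is not settled which group carries the mutation. Every direction given by label could be the reverse of the direction by genotype. The groups are therefore called the libraries labelled crol-KO and the libraries labelled wild-type throughout. The counts per library summed to between 23637969 and 49236787 in those labelled crol-KO and between 28697638 and 37900887 in those labelled wild-type. The 20 most abundant genes took 28.9 to 30.8% of all counts in the libraries labelled crol-KO and 20.7 to 23.5% in those labelled wild-type. Markers of other tissues moved with the labels. The summed level of 3 midgut markers was 34097 to 37236 CPM in the libraries labelled crol-KO and 8741 to 12829 CPM in those labelled wild-type, and 3 of 3 were called higher, against a background of 6.0% of all tested genes. The sum of 5 neuronal markers was 77.3 to 87.2 CPM in the libraries labelled crol-KO and 127 to 150 CPM in those labelled wild-type. Of the 5, 2 were called lower, against a background of 7.55% of all tested genes. No marker was at 0 in all libraries.

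Proneural proteins are basic helix-loop-helix (bHLH) transcription factors that give cells of an epithelium the ability to become neural precursors. They bind DNA as dimers with the broadly expressed bHLH protein Daughterless. Extra macrochaetae, a helix-loop-helix protein that lacks the basic region for DNA contact, binds Daughterless and the proneural proteins and keeps them from DNA, as the Id proteins of vertebrates do. Within a proneural cluster, signalling from Delta to Notch represses proneural genes in all but the future precursor, and the zinc finger protein Senseless sustains their activity there. At this larval stage these genes are known from the imaginal discs, which hold the precursors of adult bristles, chordotonal organs and photoreceptors, and from the central nervous system. In RNA from whole larvae, fewer cells of a type and less RNA per cell cannot be told apart.

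Most of the set was scarce in whole larvae, and the inhibitor and the common partner were the abundant members. Over the 6 libraries emc averaged 84.9 CPM and da 31.9 CPM, above 89.4% and 76.1% of the tested genes. The tissue-restricted members stood far below both. sens averaged 2.97 CPM, ase 1.71 CPM, sc 1.53 CPM, ac 1.01 CPM, ato 0.780 CPM and l(1)sc 0.334 CPM. l(1)sc exceeded only 1.94% of the tested genes, and amos had no count in any library. Between genes, levels were ordered in TPM, the scale of the files that corrects for transcript length. In the libraries labelled crol-KO the order of median TPM was emc, da, ac, sens, sc, ato, ase and l(1)sc, and the neighbours from ac to ase overlapped. In the libraries labelled wild-type it was emc, da, ac, sens, sc, ase, ato and l(1)sc, where ac and sens, sens and sc, ase and ato, and ato and l(1)sc overlapped. emc and da did not overlap each other, or the members after them, in either group.

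**Figure D1:**
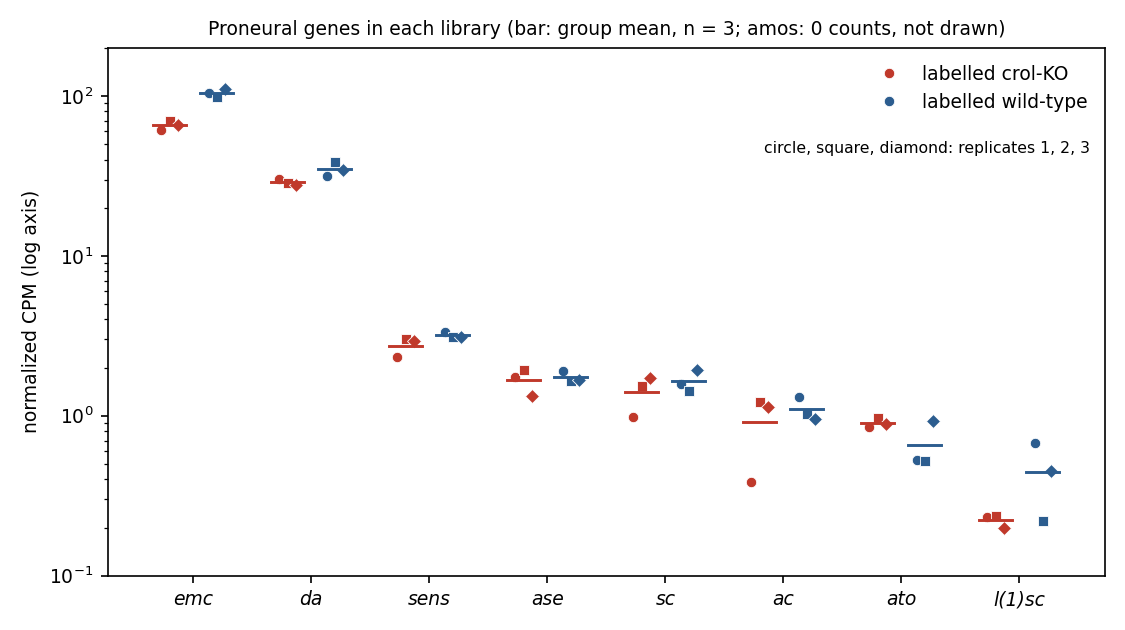
Normalized CPM (log axis) of 8 proneural genes in each library, red for the libraries labelled crol-KO and blue for those labelled wild-type, with circle, square and diamond for replicates 1, 2 and 3 and a bar at the mean of 3. The red points of emc (60.8 to 70.0 CPM) lie below the blue ones (98.2 to 111.1 CPM), whereas the points of ac, sc, ase, ato and l(1)sc overlap. amos, with 0 counts, is not drawn.

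A gene was called when edgeR's quasi-likelihood test gave an adjusted p under 0.05 (Benjamini-Hochberg over 12434 tested genes) and the log2 fold change, the libraries labelled crol-KO over those labelled wild-type, exceeded 1 in size. Of the 8 members that were tested, 0 were called lower and 0 higher in edgeR, against a background of 7.55% of tested genes called lower. At an unadjusted p under 0.05 edgeR gave 2 of the 8, emc and da, both lower. The share of all tested genes at that p was not computed, so the 2 are not read as a result about the set. At the stricter adjusted p, 17.8% of all tested genes were lower and 15.3% higher in edgeR. DESeq2 called 0 of 8 at the thresholds of the call, where it called 915 of the 12434 tested genes lower and 786 higher. It gave 1 (emc) at an unadjusted p under 0.05, again without a share over all genes. limma on log2(TPM + 1) called emc lower, where that fit called 13.6% of tested genes lower, and limma on log2(TPM + 0.1) called emc and l(1)sc lower, where it called 25.2% lower. In those limma fits the median log2 fold change of all tested genes was -0.48 and -0.67, whereas it was -0.05 in edgeR. By adjusted p alone 1 of the 8, emc, was lower, where 17.8% of tested genes were lower and 15.3% higher. The log2 fold change was below 0 for 7 of 8 members, with a median of -0.25, and for 6663 of the 12434 tested genes. With a trend over transcript length removed it was below 0 for 5 of the 8. All these counts include l(1)sc, which passed the filter only through the libraries labelled wild-type, where it was higher. Where 10 counts were required in every library, l(1)sc dropped out and 6 of 7 members were below 0 in edgeR.

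emc encodes the inhibitor of the set. It had 2364, 2683 and 1323 counts in the libraries labelled crol-KO and 3560, 4887 and 3961 counts in those labelled wild-type. Scaled to depth these were 60.8, 70.0 and 65.5 CPM in the libraries labelled crol-KO, against 103.9, 98.2 and 111.1 CPM in those labelled wild-type. The groups did not overlap, and the highest library labelled crol-KO lay well under the lowest one labelled wild-type. emc fell to 0.627 of its level in the libraries labelled wild-type (log2 fold change -0.67, SE 0.115, 95% interval -0.94 to -0.41, adjusted p = 0.0045 in edgeR). Relative to the median over tested genes emc fell by 0.62 on the log2 scale, and the adjusted p stayed under 0.05 in all 15 alternative fits run, from 9.8e-05 to 0.0394. The size of the fall did not reach the fold change threshold with counts. On the TPM scale emc had 24.2, 21.4 and 23.0 in the libraries labelled crol-KO and 57.1, 65.6 and 52.5 in those labelled wild-type, a log2 fold change of -1.31 in limma on log2(TPM + 1), or 0.83 below the median of all genes in that fit.

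The annotation of Release 6 (Ensembl) places emc on chromosome arm 3L with 2 exons. The gene hng3 lies on the other strand of its span without exon overlap, at a log2 fold change of 0.20 (adjusted p = 0.449, edgeR). Over the 6 libraries the genes with log2 CPM most like that of emc were CG7997 (Pearson r = 0.998), endos (0.997) and CG42847 (0.997), where 444 of 12433 genes exceeded 0.95. These correlations describe 6 points that fall into the labelled groups, and depth and group are shared by all genes.

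da encodes the dimer partner of the proneural proteins. Its counts were 1179, 1091 and 562 in the libraries labelled crol-KO and 1087, 1923 and 1220 in those labelled wild-type. The level was 30.3, 28.5 and 27.8 CPM in the libraries labelled crol-KO, against 31.7, 38.6 and 34.2 CPM in those labelled wild-type. The groups did not overlap, but replicate 1 labelled crol-KO and replicate 1 labelled wild-type lay close together. The difference did not pass the test (log2 fold change -0.27, SE 0.115, 95% interval -0.54 to -0.01, adjusted p = 0.102 in edgeR), and it was 0.01 once the trend over transcript length had been removed. With 3 libraries against 3, an exact permutation test (two-sided) cannot give a p below 0.1, and da reached that value, as emc and sens did.

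da is the only member with several transcripts in the tables. Its length, weighted by the 3 transcripts, was 3344, 3370 and 3353 bases in the libraries labelled crol-KO and 3305, 3300 and 3321 bases in those labelled wild-type. The groups did not overlap, with means of 3356 ± 13.0 bases in the libraries labelled crol-KO and 3309 ± 10.7 bases in those labelled wild-type (SD, n = 3 each, exact permutation p = 0.1). Among genes with several transcripts, 11.2% had a longer weighted length without overlap in the libraries labelled crol-KO. An exon of da overlaps the antisense RNA gene asRNA:CR45789 in Release 6. The library kit was directional, but the strand setting of the counting is not stated. Whether reads of both genes were kept apart is not known.

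emc was more abundant than da in every library, by a smaller margin in the libraries labelled crol-KO. The count ratio of emc to da was 2.01, 2.46 and 2.35 in the libraries labelled crol-KO and 3.28, 2.54 and 3.25 in those labelled wild-type. The groups did not overlap, although replicate 2 labelled wild-type stood close to the libraries labelled crol-KO. The mean ratio was 2.27 ± 0.238 in the libraries labelled crol-KO and 3.02 ± 0.416 in those labelled wild-type (SD, n = 3 each, exact permutation p = 0.1, two-sided). This ratio does not depend on library scaling, and it was chosen after the values of both genes had been seen.

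**Figure D2:**
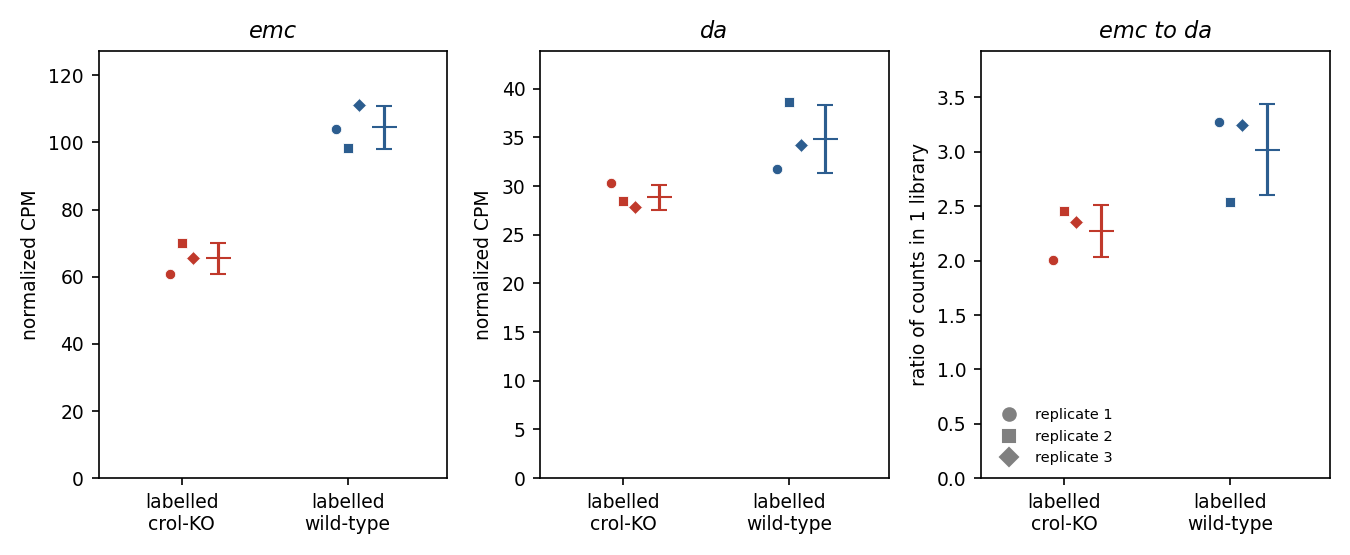
Normalized CPM of emc and da, and the ratio of their counts, in each library labelled crol-KO (red) and wild-type (blue), with the mean and SD of 3 beside the points and axes from 0. All 3 panels have lower values in the libraries labelled crol-KO (mean ratio 2.27 against 3.02), and the gap is widest relative to the spread for emc.

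sens encodes the zinc finger protein of selected sensory precursors and lies on chromosome arm 3L. It had 90, 115 and 59 counts in the libraries labelled crol-KO and 115, 155 and 110 in those labelled wild-type. These were 2.31, 3.00 and 2.92 CPM in the libraries labelled crol-KO, against 3.36, 3.12 and 3.09 CPM in those labelled wild-type. The groups did not overlap, by a narrow margin, and sens did not pass the test (log2 fold change -0.22, 95% interval -0.64 to 0.21, adjusted p = 0.392 in edgeR). Of the 8 members, 3 (emc, da and sens) were lower in CPM without overlap and 0 higher, where 26.5% of all tested genes were lower in this way and 23.7% higher. In TPM, 7 of 8 (all but ato) were lower without overlap, which was true of 60.6% of all tested genes. The 7 include l(1)sc, which was tested only through its counts in the libraries labelled wild-type.

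The achaete-scute complex is a row of 4 single-exon bHLH genes on the X chromosome, ac, sc, l(1)sc and ase, with yellow before ac and the protease gene Pgcl between l(1)sc and ase. ac and sc specify the bristle precursors of the discs and act redundantly in much of the body. ac had 15, 47 and 23 counts in the libraries labelled crol-KO and 45, 51 and 34 in those labelled wild-type, or 0.386, 1.23 and 1.14 CPM in those labelled crol-KO against 1.31, 1.02 and 0.954 CPM in those labelled wild-type. Replicate 1 labelled crol-KO was low, and the other libraries labelled crol-KO fell within the range of those labelled wild-type. ac had a log2 fold change of -0.28 (95% interval -1.27 to 0.71, adjusted p = 0.645 in edgeR), and of 0.12 without that replicate.

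sc had 38, 59 and 35 counts in the libraries labelled crol-KO and 54, 71 and 69 in those labelled wild-type. The levels, 0.977, 1.54 and 1.73 CPM in the libraries labelled crol-KO and 1.58, 1.43 and 1.94 CPM in those labelled wild-type, overlapped. The same library, replicate 1 labelled crol-KO, was the lowest for sc and ac. The log2 fold change of sc was -0.23 (95% interval -0.88 to 0.42, adjusted p = 0.559 in edgeR), and it was -0.0094 without that library and -0.03 without replicate 3 labelled wild-type.

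l(1)sc, a neuroblast gene of the embryo, had the fewest counts of the tested members. There were 9, 9 and 4 counts in the libraries labelled crol-KO and 23, 11 and 16 in those labelled wild-type, or 0.231, 0.235 and 0.198 CPM in those labelled crol-KO against 0.671, 0.221 and 0.449 CPM in those labelled wild-type. Replicate 2 labelled wild-type lay among the libraries labelled crol-KO. The exact Poisson interval of the 4 counts runs from 1.09 to 10.2 counts, and such intervals cover counting error only. l(1)sc reached the minimum of 10 counts only in the libraries labelled wild-type, so that its presence among the tested genes depended on the group where it was higher. Its log2 fold change of -0.95 (95% interval -2.09 to 0.18) was the largest of the members in size and did not pass the test (adjusted p = 0.168 in edgeR).

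ase is expressed in neural precursors after their selection and in most neuroblasts of the larval brain. Its counts were 68, 74 and 27 in the libraries labelled crol-KO and 65, 82 and 60 in those labelled wild-type. The levels were 1.75, 1.93 and 1.34 CPM in the libraries labelled crol-KO and 1.90, 1.65 and 1.68 CPM in those labelled wild-type. The range of the libraries labelled crol-KO enclosed that of the libraries labelled wild-type. For ase it was -0.05 on the log2 scale (95% interval -0.57 to 0.48, adjusted p = 0.890 in edgeR), an interval that leaves out a change past the fold threshold in either direction. The summed level of 4 neuroblast markers also overlapped, at 14.2 to 16.0 CPM in the libraries labelled crol-KO and 14.5 to 18.8 CPM in those labelled wild-type. The 4 markers, named after their values were seen, did not move together. By adjusted p alone in edgeR, insc was lower (log2 fold change -0.84, adjusted p = 0.020) and dpn higher (0.74, adjusted p = 0.044). mira (0.24) and wor (-0.23) did not pass.

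All 4 genes of the complex lie within the span of CG32816, a gene on the other strand, with no exon in common. CG32816 had 84, 70 and 27 counts in the libraries labelled crol-KO and 124, 179 and 163 in those labelled wild-type, and it was called lower (log2 fold change -1.13, SE 0.230, adjusted p = 0.0093 in edgeR). That call was lost without replicate 3 labelled crol-KO (log2 fold change -0.98) and without replicate 3 labelled wild-type (-0.94). The genes of the complex are related in sequence, so that reads in their shared parts could have been assigned to the wrong member.

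ato and amos encode proneural proteins of another bHLH family. ato, on chromosome arm 3R, specifies chordotonal organs and the founding photoreceptors. It had 33, 37 and 18 counts in the libraries labelled crol-KO and 18, 26 and 33 in those labelled wild-type. The levels were 0.848, 0.966 and 0.892 CPM in the libraries labelled crol-KO, against 0.526, 0.523 and 0.926 CPM in those labelled wild-type. ato was the one member with a positive log2 fold change, 0.46 (95% interval -0.28 to 1.21, adjusted p = 0.297 in edgeR), and replicate 3 labelled wild-type lay within the range of the libraries labelled crol-KO. Without that library ato had a log2 fold change of 0.85 (adjusted p = 0.069 in edgeR). On the TPM scale its log2 fold change was -0.06 in limma on log2(TPM + 1), against a median of -0.48 for all genes in that fit.

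amos, on chromosome arm 2L, is known for olfactory sensilla and a class of multidendritic neurons. It had 0 counts in all 6 libraries. A count of 0 over 216077365 counts allows a level of up to 0.0139 CPM over the 6 libraries together (3 counts). In single libraries the limit was 0.0609 CPM in the deepest and 0.127 CPM in the shallowest. All these limits, and the order of depth, used total counts without the TMM factors. In counts, l(1)sc had at least 4 in each library, above the 3 of these limits, and amos was not tested.

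**Figure D3:**
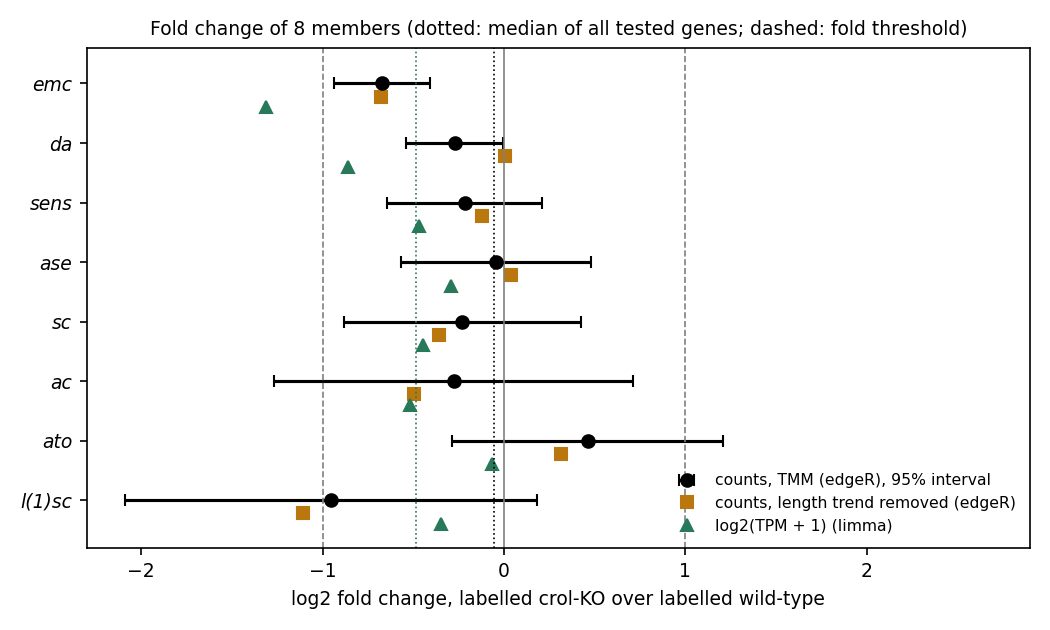
Log2 fold change of 8 proneural genes, the libraries labelled crol-KO over those labelled wild-type, from counts with a 95% interval (black circles), from counts after removal of the trend over transcript length (orange squares) and from log2(TPM + 1) (green triangles). Solid grey marks 0, dashed lines the fold threshold, and dotted lines the median of all tested genes (-0.05 with counts, -0.48 with TPM). emc lies below 0 with all 3 scales, while the intervals of ac, sc, ase, ato, sens and l(1)sc cross 0.

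The genes that act before, beside and after the proneural genes were taken from 3 lists with 47 genes, of which 45 were tested. In edgeR 6 of the 45 were called lower and 0 higher, at the background of 7.55% called lower and 6.0% called higher given above. By adjusted p alone 17 were lower and 2 higher, where 17.8% of all tested genes were lower and 15.3% higher. The median log2 fold change of the 45 was -0.46. With the trend over transcript length removed, 4 of the 45 were called lower and 0 higher, beside 5.69% of all tested genes called lower, and the median was -0.28, where that of all tested genes was -0.01. limma on log2(TPM + 1) called 12 of the 45 lower, beside 13.6% of all tested genes in that fit. Leaving out 1 library at a time gave 4 to 6 called lower and 0 to 1 called higher.

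The first list holds genes of the E(spl) complex on chromosome arm 3R, most of which encode bHLH repressors of proneural genes or Bearded family proteins that limit Notch signalling, with Bearded family genes of arm 3L (Brd, Tom, Ocho and BobA) and the corepressor gene groucho (gro). Of 17 genes 16 were tested, 2 were called lower and 0 higher, and the median log2 fold change was -0.23 (-0.45 with the length trend removed, with 4 called lower). Both called genes belong to the Bearded family, E(spl)malpha-BFM within the E(spl) complex and Ocho outside it. E(spl)malpha-BFM had 4.17, 6.71 and 6.74 CPM in the libraries labelled crol-KO and 15.9, 14.3 and 14.0 CPM in those labelled wild-type (log2 fold change -1.34, SE 0.196, adjusted p = 0.0025 in edgeR). Ocho had 0.386, 0.365 and 0.545 CPM in the libraries labelled crol-KO and 1.78, 1.47 and 1.46 CPM in those labelled wild-type (log2 fold change -1.89, SE 0.283, adjusted p = 0.0027 in edgeR). The groups stood apart for both, and both calls held without each library in turn.

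gro passed the adjusted p alone, with a log2 fold change of -0.78 (adjusted p = 0.0025, edgeR), and so did the bHLH repressors E(spl)mbeta-HLH at -0.97 and E(spl)m8-HLH at -0.82, named here after their values were seen. The adjusted p of E(spl)m8-HLH was 0.071 in edgeR without replicate 1 labelled wild-type. Other bHLH repressors did not pass, among them E(spl)m3-HLH at 0.23 (adjusted p = 0.288, edgeR). The Bearded family gene Tom had a log2 fold change of -0.36 (adjusted p = 0.095, edgeR). Kaz-m1, formerly E(spl)m1, encodes a Kazal-type protein and no bHLH repressor. It was higher by adjusted p alone (log2 fold change 0.81, adjusted p = 0.026 in edgeR) and was called higher, at 1.01, without replicate 3 labelled wild-type. The adjusted p of Kaz-m1 in edgeR was 0.055, 0.070 and 0.078 without replicates 1, 2 and 3 labelled crol-KO and 0.057 without replicate 1 labelled wild-type, and limma on log2(TPM + 1) gave 0.18 (adjusted p = 0.289).

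The second list holds 14 regulators upstream of proneural genes, all tested, with 2 called lower, 0 called higher and a median log2 fold change of -0.53 (-0.17 with the length trend removed, with 0 called). All 14 values were below 0, as were those of 6663 of the 12434 tested genes. Delta (Dl), the ligand of lateral inhibition, had 4.47, 4.44 and 5.10 CPM in the libraries labelled crol-KO and 10.8, 16.1 and 11.6 CPM in those labelled wild-type (log2 fold change -1.47, SE 0.181, adjusted p = 0.0012 in edgeR). The receptor gene Notch (N) had 19.8, 22.7 and 17.6 CPM in the libraries labelled crol-KO and 35.4, 80.4 and 34.5 CPM in those labelled wild-type. The groups of N did not overlap, and replicate 2 labelled wild-type stood far above the other libraries. N was called lower (log2 fold change -1.32, SE 0.326, adjusted p = 0.019 in edgeR), and the value was -0.77 without that replicate. The call of N was also lost without replicate 1 (adjusted p = 0.0546) or replicate 3 (adjusted p = 0.0734) labelled crol-KO in edgeR, at log2 fold changes of -1.31 and -1.24. With the length trend removed, Dl had -0.91 (adjusted p = 0.0016, edgeR) and N -0.24 (adjusted p = 0.160, edgeR), and neither was called. Dl then missed the fold threshold alone. hairy (h), a bHLH repressor of ac, had a log2 fold change of -0.68 (adjusted p = 0.0098, edgeR). The zinc finger gene charlatan (chn) had -0.64 (adjusted p = 0.016, edgeR), and u-shaped (ush), a cofactor of pannier, had -0.60 (adjusted p = 0.081, edgeR). With the length trend removed, h had -0.64, chn -0.07 (adjusted p = 0.618, edgeR) and ush -0.06. The adjusted p of chn in edgeR was also 0.057 and 0.059 without replicates 2 and 3 labelled crol-KO, and ush had -0.25 without replicate 2 labelled wild-type.

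The third list holds 16 genes of sensory precursors and neuroblasts, of which 15 were tested, 2 called lower and 0 called higher, with a median log2 fold change of -0.56 (-0.39 with the length trend removed, with 0 called). prospero (pros), a homeodomain protein of neural daughter cells, had 32.6, 27.9 and 30.0 CPM in the libraries labelled crol-KO and 52.0, 145.9 and 52.4 CPM in those labelled wild-type. It too was highest in replicate 2 labelled wild-type. Its log2 fold change was -1.47 (SE 0.390, adjusted p = 0.025 in edgeR), -0.76 without that replicate and 0.01 with the length trend removed. The call of pros was lost without any one of the libraries labelled crol-KO as well (adjusted p from 0.058 to 0.079, edgeR, log2 fold change -1.53 to -1.41).

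couch potato (cpo), an RNA-binding protein gene of sensory organs, had 6.76, 4.46 and 4.66 CPM in the libraries labelled crol-KO and 12.5, 19.8 and 10.5 CPM in those labelled wild-type (log2 fold change -1.42, SE 0.270, adjusted p = 0.0070 in edgeR). With the length trend removed cpo had -0.57 (adjusted p = 0.011, edgeR) and was not called. neuralized (neur), the ubiquitin ligase that activates Delta in precursors, had a log2 fold change of -0.77 (adjusted p = 0.0070, edgeR), and numb, an inhibitor of Notch in daughter cells, had -0.63 (adjusted p = 0.011, edgeR, and 0.053 without replicate 3 labelled crol-KO). deadpan (dpn), a bHLH repressor of neuroblasts, also named after its value was seen, was the one gene of the list that was higher by adjusted p alone (log2 fold change 0.74, SE 0.236, adjusted p = 0.044 in edgeR). The adjusted p of dpn in edgeR was 0.086 and 0.179 without replicates 1 and 2 labelled crol-KO and 0.102 and 0.068 without replicates 1 and 2 labelled wild-type, and limma on log2(TPM + 1) gave a log2 fold change of 0.02.

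Tissue markers moved beside these lists. The neuronal markers were lower in sum without overlap, as given above. The sum of 3 glial markers was 55.4 to 60.8 CPM in the libraries labelled crol-KO and 65.3 to 69.1 CPM in those labelled wild-type, with 0 called. Of these markers, named after their values were seen, nrv2 was lower without overlap (log2 fold change -0.30, adjusted p = 0.058 in edgeR). The groups overlapped for repo (-0.21) and moody (0.03). The sum of 4 imaginal disc markers was 19.9 to 24.2 CPM in the libraries labelled crol-KO and 25.8 to 35.0 CPM in those labelled wild-type. Among them, also named after their values were seen, Dll (log2 fold change -0.47, adjusted p = 0.087 in edgeR) and Ubx were lower without overlap. The groups overlapped for nub (-0.05) and vg (-0.20). Of the 4, 1 (Ubx) was called lower (log2 fold change -1.17, adjusted p = 0.011 in edgeR), against a background of 7.55% of all tested genes. The sums of muscle, fat body and salivary gland markers overlapped between the groups. The fat body sum held markers that moved in opposite directions, named here after their values were seen. Lsp1alpha was called lower (log2 fold change -1.44, adjusted p = 0.012 in edgeR). Lsp1beta was higher by adjusted p alone (log2 fold change 0.82, adjusted p = 0.027 in edgeR). The part of these markers, of the midgut markers and of the share taken by abundant genes in the values of emc and of the lists was not tested. Across the 12434 tested genes the log2 fold change declined with transcript length (Spearman rho -0.37, where each point is a gene and genes are not replicates). emc had -0.68 with that trend removed, against -0.67 with it.

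**Figure D4:**
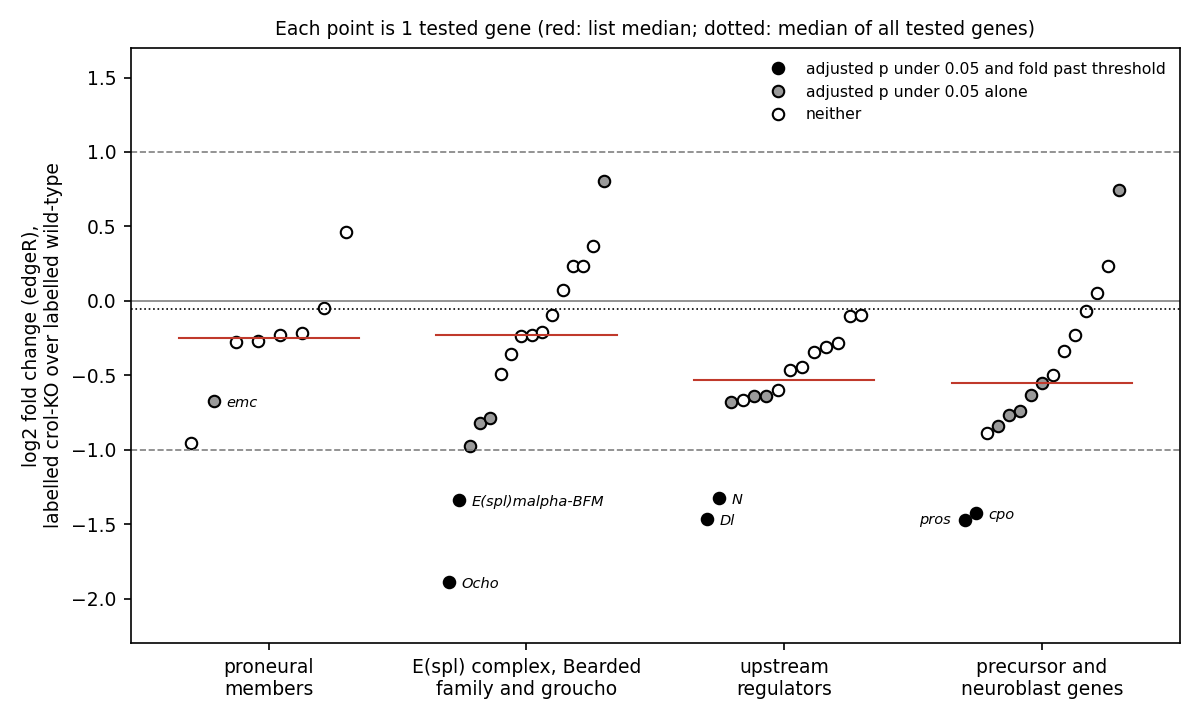
Log2 fold change in edgeR, the libraries labelled crol-KO over those labelled wild-type, of each tested gene among the proneural genes and the 3 lists, ordered within each column. Black points passed the adjusted p and the fold threshold, grey points the adjusted p alone and white points neither, with a red bar at the column's median and a dotted line at the median of all tested genes (-0.05). No proneural gene is black, emc is grey, and the 6 black points, 2 in each list, lie below the lower dashed line.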

How the data were processed

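Polyadenylated RNA of whole larvae was sequenced in 6 libraries, grouped by sample title and genotype field. The authors trimmed reads with Trim Galore 0.6.1, aligned them to dm3 with STAR 2.7.3a and estimated genes with RSEM 1.3.2. The deposited tables hold its expected counts, unscaled for depth, and its TPM. FPKM values in the deposited tables were not used. The length columns, in bases, are those of the authors' RSEM run. Whether a deposited count is a read pair or a read was not settled.

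After rounding of the expected counts, genes that reached 10 counts in 3 or more libraries entered the quasi-likelihood test of edgeR 4.0.16 with TMM scaling in R 4.3.3. The SE is the log2 fold change divided by the square root of F. Alternatives were limma 3.58.1 on log2(TPM + 1) or log2(TPM + 0.1), and DESeq2 1.42.0, with other scalings, filters and thresholds, a replicate block, each library left out and a correction for length (lowess, span 0.3). The members, the lists, the named genes and the added alternatives were chosen with earlier results of these data known. Genes named from a list are those called and the 4 of highest mean CPM. Others are said to be named after their values were seen. Strand, exons and neighbours came from Release 6, and no coordinates are given, since the files use dm3. On simulated counts edgeR called 100% of 200 genes changed over 12323 genes, with 9 unchanged genes called. Those 200 genes were drawn above a minimum mean count that ac, ato and l(1)sc did not reach. Each was given a change past the fold threshold, and no tested member changed by that much in edgeR. The 100% therefore does not show how often changes as small as those of the members would be called. The replicates are stated to be biological repeats. No 2 libraries agreed within counting error.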

Additional observations from a re-analysis of the deposited data

How the results depend on the processing

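The direction of emc and its adjusted p under 0.05 held in all 15 alternative fits, at log2 fold changes from -1.34 to -0.56. Members called lower numbered 1 (emc) in limma on log2(TPM + 1), 2 (emc and l(1)sc) on log2(TPM + 0.1) and 1 with no fold threshold, against 0 in edgeR. By adjusted p alone 5 passed in both limma fits. The share of all tested genes that passed was not computed, so the 5 are not read as a result about the members. All 8 log2 fold changes were below 0 in both fits, but 3 (pseudocount 1) and 6 (pseudocount 0.1) lay below the median of all tested genes. Those fits shift the median of all genes to -0.48 and -0.67, and upper-quartile scaling shifts it to 0.07. Over all genes, 1689 and 3139 were called lower and 175 and 247 higher in limma (pseudocounts 1 and 0.1), against 939 and 746 in edgeR. There were 2212 lower and 1900 higher with no fold threshold, and 583 lower at an adjusted p under 0.01. Leaving out 1 library at a time gave 576 to 1089 lower. In the 3 lists, 12, 25 and 17 genes were called lower in limma (pseudocounts 1 and 0.1) and with no fold threshold, and 2 higher in the last. Leaving out 1 library gave 0 to 1 higher.

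Directions reversed for ac without replicate 1 labelled crol-KO (0.12, over left-out libraries -0.60 to 0.12), and for ase (over left-out libraries -0.16 to 0.081) with upper-quartile scaling (0.070), with the length trend removed (0.042) and without replicate 3 labelled crol-KO or replicate 1 labelled wild-type. They reversed for ato (-0.064 and -0.14) and E(spl)m3-HLH (-0.41 and -0.45) in the limma fits, and for da (0.0055) and pros (0.0075) with the length trend removed. Of these values, only those of E(spl)m3-HLH had an adjusted p under 0.05 (0.039 and 0.036, limma), and both lay above the shifted median of all genes. The causes were not tested. l(1)sc was not tested without each library labelled wild-type or at 10 counts in every library, since it then missed the filter.

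The replicate numbers shared by the groups did not pair the libraries (correlations of same-numbered deviations 0.00352, -0.292 and -0.0517). With this number as a replicate block, 809 genes were called lower and 682 higher, 0 members were called, and emc had -0.67 (adjusted p = 0.022, edgeR). Of the members below 3 CPM, the low counts leave 95% intervals that exceed the fold threshold on one side for ac, l(1)sc and ato.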
